A study of Mus musculus with 12 samples.

Results

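Of the 55335 gene identifiers in the expression tables, 10 were followed here, the heat shock proteins and cochaperones Hspa1a, Hspa1b, Hspa8, Hsph1, Hsp90aa1, Dnajb1, Hspb1, Bag3, Hspd1 and Hspe1. They were chosen by symbol, all 10 were found once each, and all 10 passed the filter on low counts that left 14357 genes for testing. Hspb1 passed that filter only through libraries with JSH-23. The cells were mouse bone marrow-derived dendritic cells (BMDCs), C57BL/6 bone marrow cells grown for 6 days with GM-CSF, with fresh medium every 2 days, and every culture carried the Rosa26-CreER transgene and intact Ctcf alleles (Ctcf wt/wt, called WT). The 4 groups of 3 libraries were untreated cells (WT), cells given LPS at 100 ng/ml for 3 h (WTL), cells given JSH-23 at 100 µM for 3 h (WT + JSH23), and cells given the same JSH-23 treatment followed by the same LPS treatment (WTL + JSH23). LPS is the bacterial cell wall component that engages TLR4, and JSH-23 is a small molecule that keeps the NF-κB subunit RelA out of the nucleus. According to the methods, cultures received 4-hydroxytamoxifen on the first day and floating CD11c+ cells were selected with microbeads, and the labels name no solvent control for JSH-23.

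The libraries held between 24664724 and 34837847 expected counts each. The 6 dendritic cell markers Itgax, Flt3, H2-Ab1, Cd74, Ccr7 and Zbtb46 summed to 17328 to 19617 TPM across the groups. TPM is the level per transcript length, scaled to the same total in each library. Cd74 and H2-Ab1 made up most of this sum, while Zbtb46 had a mean TPM of 23.5 to 43.5 and Flt3 of 2.42 to 3.20. T cell, B cell, erythroid and mast cell markers summed to 5.23 TPM or less, and Hba-a1 and Mcpt4 were at 0. The 6 neutrophil markers, of which S100a8 and S100a9 made up most, summed to 171 to 193 TPM in WT, 194 to 202 in WTL, 165 to 187 in WT + JSH23 and 151 to 167 in WTL + JSH23 cells. WTL thus overlapped no other group, and WT did not overlap WTL + JSH23. The part of these markers in the chaperone changes was not tested. WT and WTL libraries were numbered 4 to 6 and JSH-23 libraries 1 to 3, while the study's reporting summary lists other WT and WTL libraries as replicates 1 to 3. The labels name no batch, and the numbers do not say whether cells with and without JSH-23 shared a culture or sequencing run. Such a difference, if there was one, cannot be told apart from JSH-23 itself.

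Heat shock proteins bind unfolded stretches of other proteins and help them to fold, to be held soluble or to be handed on for degradation. HSP70 proteins work as a cycle in which a J-domain cochaperone such as Dnajb1 delivers the client and starts ATP hydrolysis, and a nucleotide exchange factor such as Hsph1 or Bag3 lets the client go; HSP90 takes over late folding steps of kinases and receptors. Many of these genes are targets of the transcription factor HSF1, which binds inverted repeats of the unit GAA in their promoters (the heat shock element) when unfolded protein builds up, while Hspa8 is the form of cytosolic HSP70 that cells make without stress. In dendritic cells, cytosolic HSP70 and HSP90 have been studied for their part in handing peptides to antigen presentation.

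Promoter sequences are shown for a set list of members, Hspa1a, Hspa1b, Dnajb1, Hsph1, Hspe1 and Hspd1, with the letters of this element searched in them. Hspb1 and Bag3 were searched as well but are not shown. RefSeq (GRCm38.p6) windows from 250 bases before to 50 bases after the start site were found for 8 of the 10 genes, all but Hspa8 and Hsp90aa1. A heat shock element of 3 units was written as GAA, TTC and GAA with any 2 bases between neighbours, or as TTC, GAA and TTC in the same way, which is its reverse complement; a pair of units was written as GAANNTTC or TTCNNGAA, each of which is its own reverse complement and lies inside the longer motif. The search for a pair was added after the windows had been seen. Of 32851 windows of all genes, 0.603% held the 3 units and 15.1% held a pair. The stretches below run from 250 bases before to 30 bases after the start site, 5′ to 3′ on the gene's own strand, with matches to either motif in capitals. For genes with 2 windows, the one with the most 3-unit matches in this stretch was chosen. Where these were equal, the window nearest the annotated start was chosen.
Hspa1a (chr17:34972127-34972406, minus strand): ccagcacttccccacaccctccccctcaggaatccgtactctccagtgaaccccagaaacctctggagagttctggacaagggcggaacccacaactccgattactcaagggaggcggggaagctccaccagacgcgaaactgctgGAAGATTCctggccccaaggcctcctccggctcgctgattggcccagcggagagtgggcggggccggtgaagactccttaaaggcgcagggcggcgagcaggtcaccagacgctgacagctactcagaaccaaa
Hspa1b (chr17:34959209-34959488, minus strand): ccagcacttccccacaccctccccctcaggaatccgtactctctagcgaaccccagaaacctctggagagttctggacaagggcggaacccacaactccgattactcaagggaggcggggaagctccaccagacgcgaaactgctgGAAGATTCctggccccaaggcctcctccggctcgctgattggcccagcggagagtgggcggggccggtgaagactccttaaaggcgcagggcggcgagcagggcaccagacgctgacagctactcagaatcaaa
Dnajb1 (chr8:83607925-83608204, plus strand): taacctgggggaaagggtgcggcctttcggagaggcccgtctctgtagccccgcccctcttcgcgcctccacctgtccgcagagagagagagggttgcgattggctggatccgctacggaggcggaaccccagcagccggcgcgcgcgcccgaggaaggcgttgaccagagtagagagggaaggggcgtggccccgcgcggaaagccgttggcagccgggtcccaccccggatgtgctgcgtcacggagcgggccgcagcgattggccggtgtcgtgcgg
Hsph1 (chr5:149636286-149636565, minus strand): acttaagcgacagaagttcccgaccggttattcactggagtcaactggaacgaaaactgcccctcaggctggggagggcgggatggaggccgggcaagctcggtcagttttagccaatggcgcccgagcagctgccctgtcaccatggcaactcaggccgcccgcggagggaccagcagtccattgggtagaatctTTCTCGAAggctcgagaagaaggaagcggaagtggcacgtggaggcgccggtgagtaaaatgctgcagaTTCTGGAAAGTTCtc
Hspe1 (chr1:55087898-55088177, plus strand): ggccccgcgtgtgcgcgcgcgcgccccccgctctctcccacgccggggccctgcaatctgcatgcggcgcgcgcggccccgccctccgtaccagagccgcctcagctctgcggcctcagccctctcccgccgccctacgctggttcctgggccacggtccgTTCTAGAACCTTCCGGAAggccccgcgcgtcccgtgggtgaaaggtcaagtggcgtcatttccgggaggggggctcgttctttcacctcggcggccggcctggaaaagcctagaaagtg
Hspd1 (chr1:55087903-55088182, minus strand): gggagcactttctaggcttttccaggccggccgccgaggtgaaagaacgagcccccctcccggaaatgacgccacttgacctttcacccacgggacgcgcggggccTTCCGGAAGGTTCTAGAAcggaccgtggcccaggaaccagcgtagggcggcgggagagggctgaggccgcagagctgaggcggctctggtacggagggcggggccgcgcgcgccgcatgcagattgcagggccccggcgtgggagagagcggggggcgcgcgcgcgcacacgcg

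The 3-unit motif was found in 3 genes, Hsph1, Hspe1 and Hspd1. In Hsph1 it began 15 bases after the start site of the window shown. In the other Hsph1 window, whose start site lies nearer the annotated start, it began 36 bases after, outside the stretch shown. In Hspe1 overlapping matches began 89 and 84 bases before the start site. Hspe1 and Hspd1 are transcribed away from each other, and the Hspd1 matches, 144 and 139 bases before one of its RefSeq start sites, are the same bases read on the other strand; the second Hspd1 window, from the start site that the gene annotation uses, held no match. Hspa1a and Hspa1b each held a pair 104 bases before the start site, in windows that differed at 4 of 300 bases. Hspb1 held pairs 117 and 97 bases before and Bag3 a pair 42 bases after the start site, and both Dnajb1 windows held none.

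The 10 genes lie on 7 chromosomes in the GENCODE M21 annotation of GRCm38. Hspa1a (chr17:34969190-34972156) and Hspa1b (chr17:34956436-34959238) are neighbouring single-exon genes on the minus strand whose coding sequences were identical at 99.58% of 1923 aligned bases. Of the 100-base stretches of the Hspa1a transcript 47.07% occur unchanged in Hspa1b, both genes had fractional counts in 12 of 12 libraries, and the split of reads between them is therefore uncertain, so their sum is given beside them. Hspd1 (chr1:55077835-55088243) and Hspe1 (chr1:55088132-55091307) overlap at their first exons, Hspa1a overlaps an exon of Gm20481 on the other strand, and Hspa8 (chr9:40800984-40810087) contains 3 small nucleolar RNA genes. Whether strand was used in counting is not given in the sources used here.

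Per transcript length, the constitutive HSP70 gene Hspa8 was by far the most abundant member, with a mean of 1994 TPM ± 36.3 (SD, n = 3) in WT cells. Hsp90aa1, a stress-responsive HSP90, followed at 210.5 TPM ± 3.89, and the mitochondrial pair Hspe1 and Hspd1, a cochaperonin and its chaperonin, at 155 TPM ± 1.83 and 90.6 TPM ± 4.87. This order of the first 4 genes held in every group without overlap between neighbours. The small heat shock protein gene Hspb1 was lowest in every group, between 0.12 and 1.56 TPM in single libraries. The order changed in between: the inducible HSP70 genes Hspa1b and Hspa1a ranked 8 and 9 in WT cells, at 25.3 TPM ± 0.882 and 20.5 TPM ± 0.416, whereas in WTL + JSH23 cells Hspa1b ranked 5 at 74.4 TPM ± 6.98. Neighbours that overlapped were Bag3 and Hsph1 in WT cells, Hspa1a with Hsph1 and Hsph1 with Dnajb1 in WTL cells, Hspa1b with Hspa1a and Hspa1a with Bag3 in WT + JSH23 cells, and Hspa1b with Hsph1 and Hsph1 with Hspa1a in WTL + JSH23 cells. The 10 genes together took 0.349 to 0.356% of all counts in WT, 0.327 to 0.335% in WTL, 0.446 to 0.459% in WT + JSH23 and 0.434 to 0.455% in WTL + JSH23 cells, so both groups with JSH-23 lay above both groups without it. Hspa8 made up most of these counts. The shares are of expected counts without TMM scaling, and they were lower in WTL than in WT.

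JSH-23 without LPS (WT + JSH23 against WT) asked what the inhibitor did to resting cells. Of the 10 genes, 9 rose at an adjusted p under 0.05, and only Bag3 did not pass; across all tested genes, 41% were called, 18.8% upward and 22.1% downward. For all 10 genes the WT and WT + JSH23 libraries did not overlap, which held for 51.5% of all genes. The median log2 change of the 10 genes was 0.52, against -0.01 for all genes. Past 2-fold, Hspa1a and Hspa1b rose, compared with 2.43% of all genes upward and 5.37% in either direction. Hspb1, one of the 9 that rose, also passed 2-fold. It passed the filter on low counts only through libraries with JSH-23, with 9.91 counts or fewer in every library without it. Its rise with JSH-23 and the lack of overlap between its libraries were therefore not taken as support. The counts and the median of the 10 genes given above include Hspb1. Fold changes and adjusted p-values here and below are from edgeR's quasi-likelihood test with Benjamini-Hochberg adjustment over all tested genes, and levels are counts scaled by TMM to a common library size (CPM). Macrophage markers (Csf1r, Adgre1, Fcgr1, Mertk, C1qa, C1qb; all 6 detected) moved with the groups as well, from a summed level of 2039 to 2150 TPM in WT to 1326 to 1388 in WT + JSH23, 1410 to 1505 in WTL and 1004 to 1047 in WTL + JSH23. Their part in the chaperone changes was not tested, and in bulk RNA fewer cells of a type and less RNA per cell cannot be told apart.

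JSH-23 with LPS (WTL + JSH23 against WTL) asked the same of stimulated cells. Again 9 of the 10 genes rose and Bag3 did not pass, while 48.7% of all genes were called, 24.5% upward and 24.2% downward. For 8 of the 10 genes the groups did not overlap, against 54.8% of all genes. The median log2 change was 0.36 for the 10 genes and 0.02 for all genes. Hsph1 passed 2-fold, against 7% of all genes, 3.75% upward. Hspb1, one of the 9, did so as well, with the limit of its filter given above, and the median of the 10 genes includes it. Of the 9 genes called without LPS, all but Hspb1 passed in the same direction in every alternative fit, and of the 9 called with LPS all but Hspb1 and Hspe1. On the TPM scale, where the median of all genes shifted by 0.11 with LPS present, Bag3 passed as well (0.18, adjusted p = 0.00904).

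**Figure D1:**
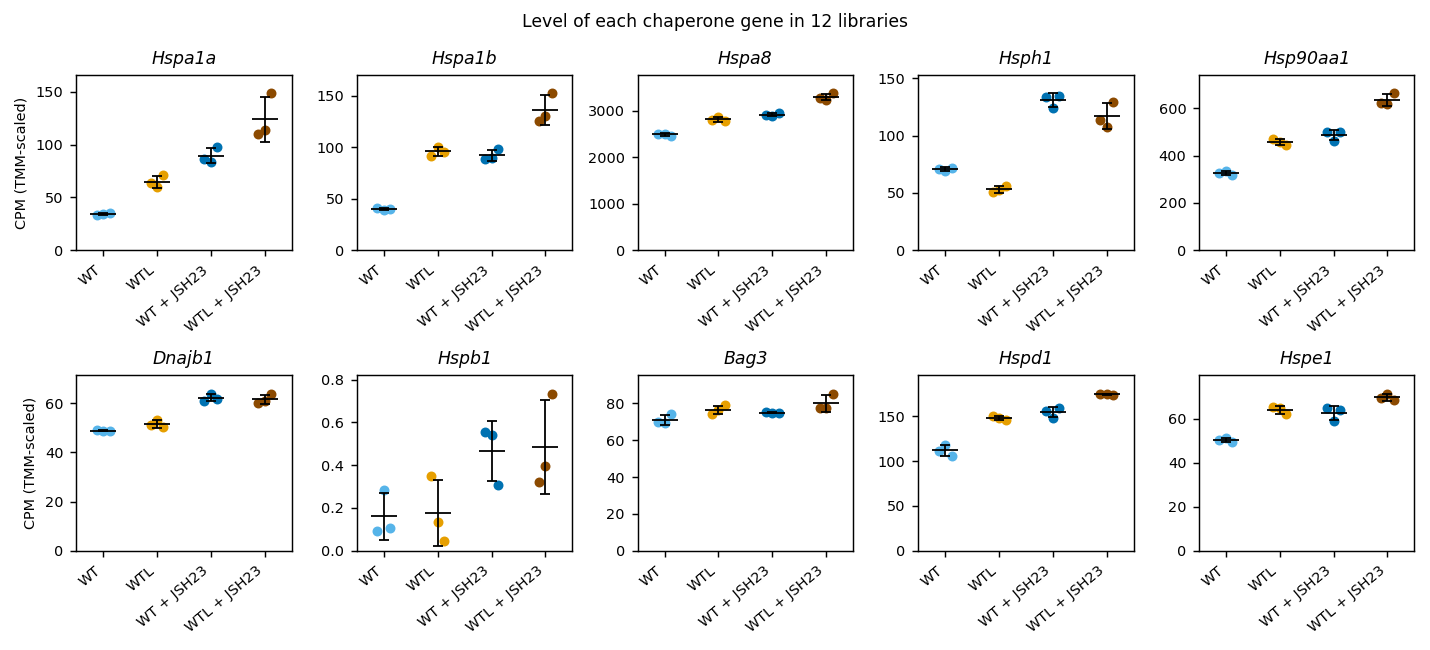
Level of each gene in CPM after TMM scaling (vertical axes, each from 0) in the 12 libraries, as points coloured by group; bars are the mean ± SD of 3 libraries. Hspa1a, Hspa1b, Hspa8 and Hsp90aa1 are lowest in WT and highest in WTL + JSH23, Hsph1 is lowest in WTL, and Bag3 stays between 69.1 and 85.3 CPM.

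The inducible HSP70 genes Hspa1a and Hspa1b were higher with JSH-23, with LPS and with both than in WT cells. The summed level of Hspa1a and Hspa1b was 74.5, 73.3 and 75.3 CPM in the WT libraries and 175, 173 and 195 CPM in the WT + JSH23 libraries. In WTL libraries it was 155, 161 and 166 CPM, and in WTL + JSH23 libraries 235, 244 and 301 CPM. No group overlapped another, and each treatment alone already lifted every library above all WT libraries. JSH-23 raised the sum 2.44-fold without LPS (log2 change 1.29 ± 0.07 SE, adjusted p = 2.4e-12) and 1.62-fold with LPS (0.69 ± 0.07, adjusted p = 1.6e-08).

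Taken singly, Hspa1a read 33.6, 34.5 and 35 CPM in WT and 86.5, 83.9 and 97.5 CPM in WT + JSH23 cells. In WTL cells it read 63.2, 60.2 and 70.8 CPM, and in WTL + JSH23 cells 109.8, 113 and 148 CPM. WTL + JSH23 replicate 3 was the highest of the 12 for this gene and also for Hspa1b. JSH-23 raised Hspa1a by a log2 change of 1.38 ± 0.09 without LPS (adjusted p = 4.76e-11) and of 0.94 ± 0.09 with LPS (adjusted p = 7.84e-09).

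Hspa1b read 40.9, 38.8 and 40.3 CPM in WT and 88.9, 89.4 and 97.8 CPM in WT + JSH23 cells. With LPS it read 91.9, 101 and 95.1 CPM in WTL and 125, 130.2 and 152 CPM in WTL + JSH23 cells. The WTL and WT + JSH23 ranges overlapped for this gene, unlike those of Hspa1a, which were apart. Its JSH-23 change was 1.20 ± 0.06 on the log2 scale without LPS (adjusted p = 1.78e-12) and 0.50 ± 0.06 with LPS (adjusted p = 3.78e-07).

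The constitutive Hspa8 moved little in relative terms but most in absolute counts. Its levels were 2507, 2505 and 2449 CPM in WT and 2904, 2873 and 2939 CPM in WT + JSH23 cells. With LPS they were 2788, 2871 and 2780.2 CPM in WTL and 3262, 3232 and 3368 CPM in WTL + JSH23 cells. The groups with and without JSH-23 did not overlap, and the rise was 1.17-fold both without LPS (adjusted p = 6.43e-06) and with it (adjusted p = 5.12e-06).

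Dnajb1, the J-domain partner of inducible HSP70, changed with JSH-23 as well. It read 49, 48.6 and 48.9 CPM in WT and 61.1, 64 and 61.9 CPM in WT + JSH23 cells. In WTL cells it read 51.2, 53.2 and 50.2 CPM, and in WTL + JSH23 cells 60.1, 61.1 and 63.7 CPM. All 6 libraries with JSH-23 thus lay above all 6 without. JSH-23 raised it 1.28-fold without LPS (log2 change 0.35 ± 0.04, adjusted p = 5.76e-07) and 1.19-fold with LPS (0.26 ± 0.04, adjusted p = 4.12e-05).

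Hsph1, the HSP110 exchange factor, behaved differently from the HSP70 genes. Its levels were 71.2, 69.2 and 72.1 CPM in WT and 134, 124 and 134 CPM in WT + JSH23 cells. With LPS they were lower, 50.6, 52.5 and 56.2 CPM in WTL and 113.9, 107 and 129 CPM in WTL + JSH23 cells. JSH-23 raised it 1.85-fold without LPS (log2 change 0.88 ± 0.06, adjusted p = 3.46e-11) and 2.20-fold with LPS (1.14 ± 0.06, adjusted p = 1.05e-12). Among the 10 genes it was the one whose JSH-23 change was larger with LPS by the test of the difference reported for the LPS change.

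Bag3, which links HSP70 to small heat shock proteins and to autophagy, had the most even levels of the 10 genes. It read 70.1, 69.1 and 74.3 CPM in WT, 74.3, 76.3 and 79 CPM in WTL, 75.5, 75.1 and 74.7 CPM in WT + JSH23, and 77.6, 77.4 and 85.3 CPM in WTL + JSH23 cells. Its JSH-23 change did not pass without LPS (log2 change 0.08 ± 0.05, adjusted p = 0.182) or with LPS (0.07 ± 0.05, adjusted p = 0.256).

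Hsp90aa1 was higher in every library with JSH-23 or LPS than in all WT libraries. It read 326, 335 and 319 CPM in WT and 501, 461 and 499 CPM in WT + JSH23 cells. In WTL cells it read 472, 458 and 446 CPM, which overlapped WT + JSH23, and in WTL + JSH23 cells 622, 620.1 and 664 CPM. JSH-23 raised it 1.49-fold without LPS (log2 change 0.58 ± 0.04, adjusted p = 2e-10) and 1.38-fold with LPS (0.47 ± 0.04, adjusted p = 3.63e-09).

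The mitochondrial chaperonin Hspd1, which forms the barrel in which imported proteins fold, read 112, 118 and 106 CPM in WT and 156, 148 and 159 CPM in WT + JSH23 cells. It read 151, 148 and 146 CPM in WTL and 175, 175 and 174 CPM in WTL + JSH23 cells. All WTL + JSH23 libraries lay above all others. JSH-23 raised it by a log2 change of 0.46 ± 0.04 without LPS (adjusted p = 7.35e-09) and of 0.24 ± 0.04 with LPS (adjusted p = 5.94e-05).

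Hspe1, the lid of that chaperonin, read 50.5, 51.4 and 49.6 CPM in WT and 64.7, 59 and 64 CPM in WT + JSH23 cells. It read 65.3, 64.8 and 62.2 CPM in WTL and 69.6, 71.4 and 68.3 CPM in WTL + JSH23 cells. JSH-23 raised it by 0.31 ± 0.04 on the log2 scale without LPS (adjusted p = 6.8e-06). With LPS the difference was 0.12 ± 0.04 (adjusted p = 0.0286), and it did not pass with DESeq2 (adjusted p = 0.114) with no filter on low counts (adjusted p = 0.0628) or without 1 of 4 libraries, WTL + JSH23 replicates 1 and 2 and WTL replicates 5 and 6 (highest adjusted p = 0.106).

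Hspb1, a small heat shock protein that holds unfolded proteins soluble, had between 1.31 and 17.8 expected counts per library, fractional in 10 of the 12. The counts were 3, 9.91 and 3 in WT, 8.93, 3.53 and 1.31 in WTL, 17.8, 15.2 and 9.32 in WT + JSH23, and 8.52, 10.4 and 17.2 in WTL + JSH23 cells. WTL overlapped WTL + JSH23. The log2 change with JSH-23 was 1.49 ± 0.53 without LPS (adjusted p = 0.0297) and 1.38 ± 0.56 with LPS (adjusted p = 0.0488). The first did not pass without WT replicate 4 or 6 or WT + JSH23 replicate 1 or 2 (highest adjusted p = 0.121), and the second when any 1 of 9 libraries was left out, all but WT replicate 5, WTL replicate 4 and WTL + JSH23 replicate 1 (highest adjusted p = 0.227), so at this depth the level of Hspb1 could not be set firmly.

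**Figure D2:**
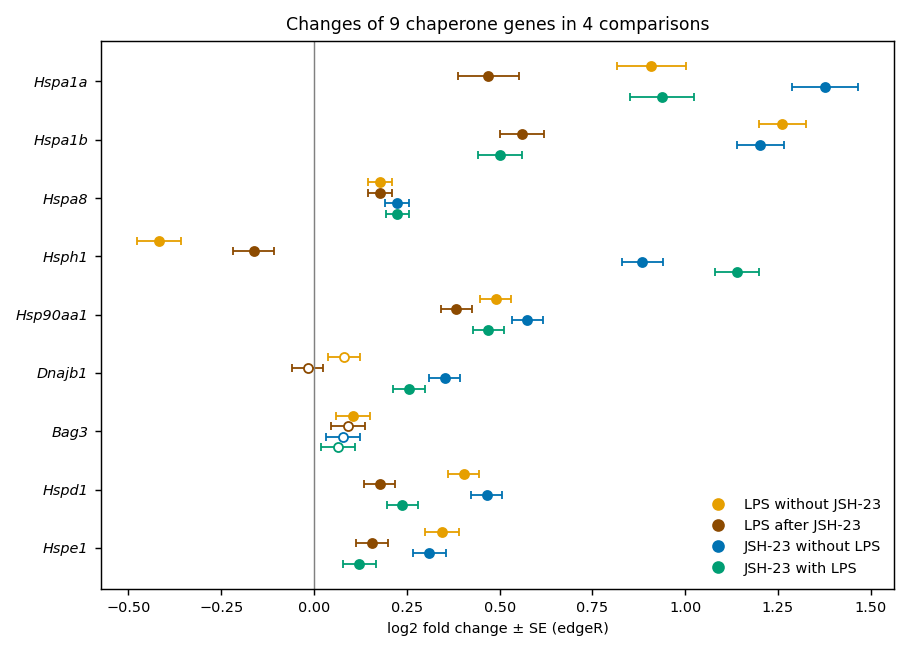
Log2 fold change ± SE (edgeR) of 9 genes in the 4 comparisons named in the legend; filled points have an adjusted p under 0.05, and Hspb1 is left out for its few counts. Hsph1 is the gene whose LPS changes (-0.42 and -0.16) lie below 0 while its JSH-23 changes (0.88 and 1.14) lie above it.

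LPS without JSH-23 (WTL against WT) asked which of these genes answered stimulation at 3 h. At an adjusted p under 0.05, 7 genes rose and Hsph1 fell, compared with 65.7% of all genes called, 31% upward and 34.7% downward. For 9 of the 10 genes the groups did not overlap, against 69.9% of all genes. Hspa1b was the gene past 2-fold, against 16.4% of all genes and 7.36% upward, and the median log2 change was 0.26 for the 10 genes and -0.05 for all genes. The direction of the small changes depended on the scaling: on log2(TPM + 1) values tested with limma, the median change of all genes shifted by -0.29, and 3 of the 10 genes rose and 4 fell. The macrophage marker sum given above, which is on the TPM scale, was lower in the same comparison. Among these markers Mertk was higher, with means of 23.6 TPM in WT and 34.3 in WTL. The rest were lower, Adgre1 only from 145 to 138 TPM. The LPS comparison shares its WT libraries with that of JSH-23 without LPS.

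Hspa1a rose 1.88-fold with LPS (log2 change 0.91 ± 0.09, adjusted p = 1.84e-08), Hspa1b 2.40-fold (1.26 ± 0.06, adjusted p = 1.65e-13) and their sum 2.16-fold (1.11 ± 0.07, adjusted p = 6.95e-12). Hsp90aa1 rose 1.40-fold (0.49 ± 0.04, adjusted p = 9.89e-10). Hsph1 fell to 0.749 of its WT level (log2 change -0.42 ± 0.06, adjusted p = 2.97e-06). These 4 genes passed in the same direction in each of the 18 or 19 alternative fits, the TPM scale included, and for none of them did the WT and WTL libraries overlap.

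For the other members the call or the direction depended on the fit, except for Hspb1, which passed in none of its 19 alternatives. Hspd1 rose by 0.40 ± 0.04 (adjusted p = 2.79e-08) and Hspe1 by 0.34 ± 0.04 (adjusted p = 8.14e-07) on the TMM scale, and neither passed on the TPM scale (0.06, adjusted p = 0.219, and -0.01, adjusted p = 0.88). Hspa8 rose by 0.18 ± 0.03 (adjusted p = 5.21e-05) but was lower on the TPM scale by -0.15 (adjusted p = 0.000857). Dnajb1 did not pass (0.08 ± 0.04, adjusted p = 0.111), passed as higher with DESeq2 (0.11, adjusted p = 0.0447) and was lower on the TPM scale (-0.25, adjusted p = 0.000185). Bag3 passed narrowly (0.10 ± 0.05, adjusted p = 0.0486), did not pass when any 1 of 7 libraries was left out (WT replicates 4 and 5, WTL replicates 5 and 6, WT + JSH23 replicates 1 to 3; highest adjusted p = 0.165), with upper quartile scaling (0.02, adjusted p = 0.667) or with no filter on low counts (0.10, adjusted p = 0.137), and was lower on the TPM scale (-0.22, adjusted p = 0.00149). Hspb1 did not pass (0.13 ± 0.65, adjusted p = 0.874).

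**Figure D3:**
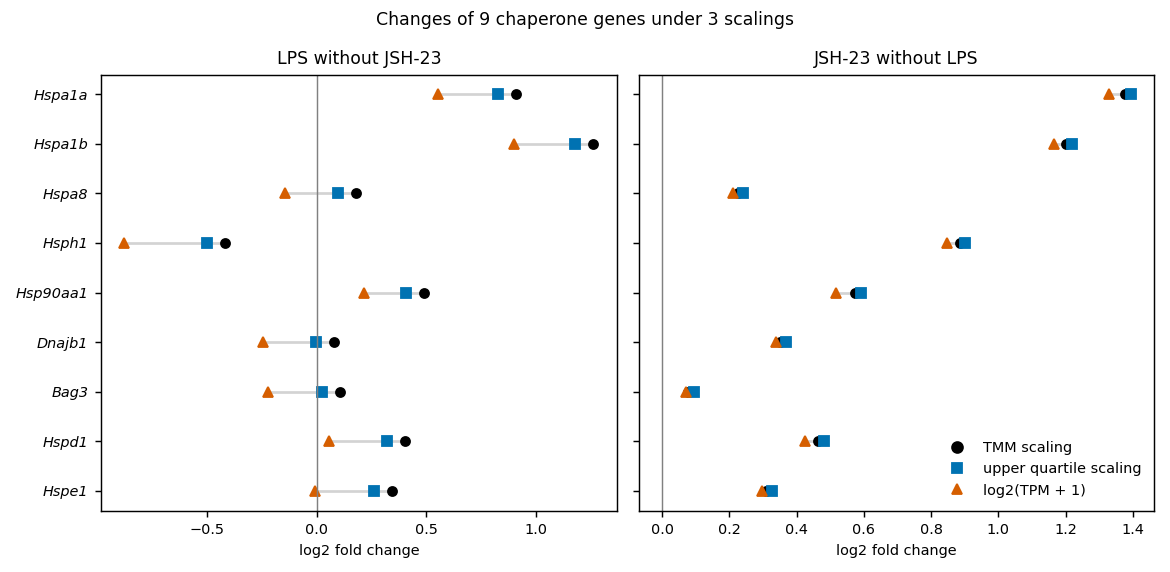
Log2 fold change of 9 genes with LPS (left) and with JSH-23 (right) under TMM scaling, upper quartile scaling and on log2(TPM + 1) values. The LPS points of Hspa8, Dnajb1, Bag3 and Hspe1 lie on both sides of 0, while in the JSH-23 panel all points lie above 0 and the 3 scalings lie close together.

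LPS after JSH-23 (WTL + JSH23 against WT + JSH23) asked whether the same genes answered LPS when JSH-23 came first. Of the 10 genes, 6 rose and Hsph1 fell, against 54.5% of all genes called, 27.4% upward and 27.1% downward. For 7 of the 10 genes the groups did not overlap, against 59.1% of all genes. The largest change of the 10 was that of Hspa1b, 1.47-fold, and 10.3% of all genes passed 2-fold, 5.85% upward. The median log2 change was 0.17 for the 10 genes and -0.02 for all genes. On the TPM scale, where the median of all genes shifted by -0.18, 3 rose (Hspa1a, Hspa1b, Hsp90aa1) and 2 fell (Hsph1, Dnajb1).

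The Hspa1a and Hspa1b sum rose 1.43-fold (log2 change 0.52 ± 0.07, adjusted p = 8.59e-07), Hspa1a 1.38-fold (adjusted p = 5.96e-05) and Hspa1b by a log2 change of 0.56 ± 0.06 (adjusted p = 5.57e-08). Hsp90aa1 rose 1.30-fold (0.38 ± 0.04, adjusted p = 6.35e-08). Hspa8 (0.18 ± 0.03, adjusted p = 7.49e-05), Hspd1 (0.18 ± 0.04, adjusted p = 0.00103) and Hspe1 (0.16 ± 0.04, adjusted p = 0.00512) rose on the TMM scale and were at -0.03, -0.01 and -0.06 on the TPM scale. With upper quartile scaling Hspd1 (0.09, adjusted p = 0.0601) and Hspe1 (0.07, adjusted p = 0.181) did not pass either, and Dnajb1 was lower (-0.10, adjusted p = 0.0415). Hsph1 was lower by -0.16 ± 0.06 (adjusted p = 0.017), with overlapping libraries, and the call was lost without WT + JSH23 replicate 1 or 3 or WTL + JSH23 replicate 1 or 2 (smallest change -0.11, adjusted p = 0.122). Dnajb1 (-0.02 ± 0.04, adjusted p = 0.762), Bag3 (0.09 ± 0.05, adjusted p = 0.0929) and Hspb1 (0.02 ± 0.46, adjusted p = 0.977) did not pass.

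Whether JSH-23 altered the LPS change was tested directly, as the log2 LPS change with JSH-23 minus that without it. The LPS change was lower for 4 genes and higher for 1, against 18% of all genes called, 8.44% lower and 9.54% higher. Hspa1b differed most, by -0.70 ± 0.09 (adjusted p = 9.04e-06), and passed in all 17 alternative fits. The sum of Hspa1a and Hspa1b differed by -0.59 ± 0.10 (adjusted p = 0.000164) and Hspa1a alone by -0.44 ± 0.12 (adjusted p = 0.0168), which just missed the threshold without WTL + JSH23 replicate 1 or WT + JSH23 replicate 3 (highest adjusted p = 0.0519) and did not pass on the TPM scale (-0.30, adjusted p = 0.186).

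Hspd1 differed by -0.23 ± 0.06 (adjusted p = 0.00982) and Hspe1 by -0.19 ± 0.06 (adjusted p = 0.0429), and on the TPM scale both were at -0.06 and -0.05 and did not pass. The Hspe1 call was lost when any 1 of 9 libraries was left out, all but WTL replicate 6, WT + JSH23 replicate 2 and WTL + JSH23 replicate 2, and with no filter on low counts (adjusted p = 0.107). For Hsph1 the difference was 0.25 ± 0.08 (adjusted p = 0.0346), a smaller LPS fall after JSH-23, and it was lost when WT replicate 4 or 6, WTL replicate 4 or 5, WT + JSH23 replicate 2 or WTL + JSH23 replicate 3 was left out (highest adjusted p = 0.103). Hspa8 (0.00 ± 0.05), Hsp90aa1 (-0.11 ± 0.06, adjusted p = 0.231), Dnajb1 (-0.10 ± 0.06), Bag3 (-0.01 ± 0.06) and Hspb1 (-0.11 ± 0.79) did not pass.

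These differences are ratios, and JSH-23 had raised the starting level. In CPM, the mean rise of the Hspa1a and Hspa1b sum with LPS was 86.2 ± 3.15 (SE) without JSH-23 and 78.4 ± 21.7 after it. For Hspa1a the rise was 30.3 ± 3.17 and 34.6 ± 13 CPM, and for Hspa1b 55.8 ± 2.61 and 43.8 ± 8.77 CPM. For Hspd1 it was 36.2 ± 3.78 and 20.2 ± 3.26 CPM, and for Hspe1 13.6 ± 1.11 and 7.19 ± 2.02 CPM. The Hsph1 level changed by -17.7 ± 1.86 and -13.8 ± 7.42 CPM. The rise in CPM was looked at after the fold changes had been seen and was not tested. On this scale the ranges of ± 1 SE overlapped for the sum, Hspa1a and Hsph1 and were apart for Hspa1b, Hspd1 and Hspe1.

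**Figure D4:**
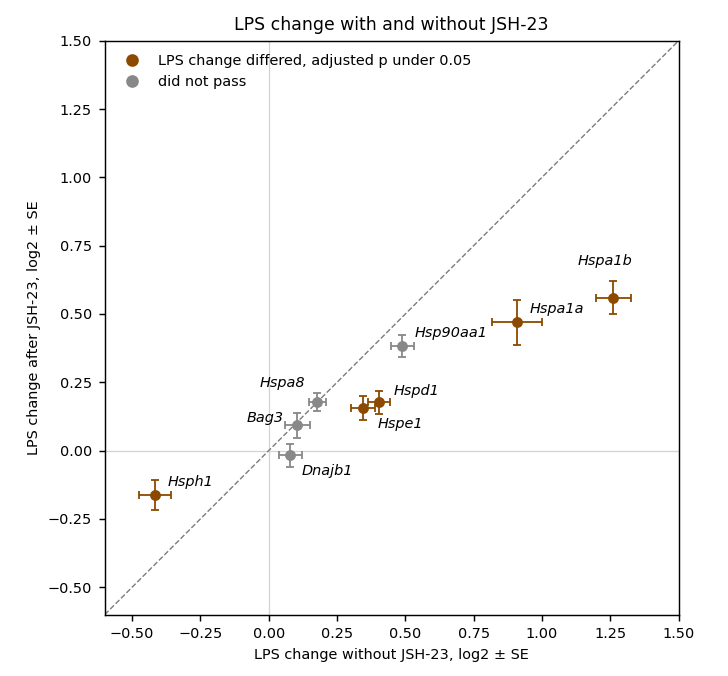
LPS change (log2 ± SE) of 9 genes without JSH-23 (horizontal) and after JSH-23 (vertical), with a dashed line of equal change; Hspb1 is left out for its few counts. Hspa1a, Hspa1b, Hspd1 and Hspe1 lie below the line and Hsph1 above it, all 5 with an adjusted p under 0.05 for the difference.

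The other genes of the chaperone network were taken from 9 lists of 75 symbols, of which 69 were tested. With JSH-23 and no LPS, 38 rose and 4 fell, 60.9% of the 69 against 41% of all genes called. With JSH-23 and LPS, 24 were higher and 14 lower (55.1% against 48.7%), and on the TPM scale 36 higher and 3 lower. With LPS alone 35 were higher and 10 lower (65.2% against 65.7%), and on the TPM scale 12 and 35. With LPS after JSH-23 30 were higher and 12 lower (60.9% against 54.5%), with upper quartile scaling 19 and 22, and on the TPM scale 11 and 27. The shares called with LPS and with JSH-23 and LPS were thus near those of all genes. The LPS change differed with JSH-23 for 15 listed genes (21.7% against 18% of all genes), lower for 14 of them, but on the TPM scale 4 were lower and 4 higher. The macrophage marker sums given above moved with all 4 comparisons.

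Of 4 heat shock transcription factor genes and Hsbp1, which encodes a binding protein of these factors, 3 rose with JSH-23 alone and 2 with JSH-23 and LPS. Of all genes, 41% (18.8% upward) and 48.7% (24.5% upward) were called in these comparisons. Hsf1, the main activator of the heat shock response, rose by a log2 change of 0.30 ± 0.06 and 0.43 ± 0.06 in these comparisons, from mean levels of 13.8 CPM in WT and 14.3 in WTL. Hsf2 rose by 0.19 ± 0.05 with JSH-23 and LPS. Hsf4, at about 1 CPM, rose by 0.72 ± 0.23 with JSH-23 alone and was lower with LPS after JSH-23 by -1.05 ± 0.25. On the TPM scale all 5 genes were lower with LPS alone.

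Of the 10 other HSP70 and HSP110 genes tested, 5 rose and 1 fell with JSH-23 alone (41% of all genes called), and 3 rose and 3 fell with JSH-23 and LPS (48.7%). Among those that rose were Hspa1l, a near relative of Hspa1a, by 1.22 ± 0.17 with JSH-23 alone, Hspa4l, an HSP110 relative, by 0.54 ± 0.04 and 0.63 ± 0.04, and mitochondrial Hspa9 by 0.65 ± 0.05 with LPS present. Hspa5 (BiP), the HSP70 of the endoplasmic reticulum, fell with JSH-23 by -0.16 ± 0.04 without and -0.54 ± 0.04 with LPS, having risen by 0.83 ± 0.04 with LPS alone. Hyou1, also of the endoplasmic reticulum, was lower by -0.15 ± 0.04 with JSH-23 and LPS on the TMM scale and at 0.00 on the TPM scale. The LPS change of Hspa1l was lower after JSH-23 by -0.86 ± 0.24, and that of Hspa5 by -0.38 ± 0.05 on the TMM scale (-0.17 on the TPM scale, adjusted p = 0.0686).

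Of the 3 other HSP90 genes, cytosolic Hsp90ab1 rose with JSH-23 by 0.39 ± 0.04 without and 0.36 ± 0.04 with LPS, from a mean of 1273 CPM in WT. Hsp90b1 of the endoplasmic reticulum was lower with JSH-23 and LPS by -0.22 ± 0.04, and mitochondrial Trap1 was lower by -0.22 ± 0.05 without and -0.21 ± 0.05 with LPS; with LPS neither passed on the TPM scale. Of the 13 HSP90 cochaperone genes, 10 rose and 1 fell with JSH-23 alone (41% of all genes called), and 8 rose and 2 fell with JSH-23 and LPS (48.7%). Fkbp4, a peptidyl-prolyl isomerase, rose by 0.68 ± 0.07 and 0.62 ± 0.07, and Ahsa1, which speeds up the HSP90 ATPase, by 0.44 ± 0.05 and 0.53 ± 0.05, while the kinase adaptor Cdc37 was lower by -0.14 ± 0.04 and -0.21 ± 0.04 on the TMM scale and passed neither time on the TPM scale. Fkbp4 and Ahsa1 fell with LPS alone by -0.39 ± 0.07 and -0.22 ± 0.05, whereas Stip1, the adaptor between HSP70 and HSP90, rose by 0.86 ± 0.04 and Ptges3 by 0.68 ± 0.04.

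Of the 12 other cytosolic J-domain genes, 5 rose with JSH-23 alone, near the 41% of all genes called, and their median log2 change was -0.01. With JSH-23 and LPS 2 were higher and 5 lower on the TMM scale (48.7% of all genes called) and 3 higher and 1 lower on the TPM scale. Dnajb4, a close relative of Dnajb1, rose by 1.38 ± 0.06 and 0.83 ± 0.06, and Dnajb2 by 0.81 ± 0.07 and 0.83 ± 0.07. LPS alone raised Dnajb6 by 1.26 ± 0.04 and Dnaja2 by 0.87 ± 0.04 and lowered Dnajb14 by -1.01 ± 0.05. The LPS change was lower after JSH-23 for Dnajb4 (-0.55 ± 0.08) and Dnajb6 (-0.55 ± 0.05). Among the 8 HSP70 exchange and BAG genes, St13, an HSP70-interacting protein, rose by 0.45 ± 0.04 and 0.40 ± 0.04 with JSH-23, and Bag1 was lower by -0.13 ± 0.04 and -0.21 ± 0.04. Bag4 was lower with LPS alone by -0.66 ± 0.10.

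All 8 genes of the cytosolic chaperonin TRiC, which folds actin and tubulin, rose with LPS alone on the TMM scale, Cct3 most by 0.49 ± 0.04 and Tcp1 by 0.38 ± 0.04, but on the TPM scale 1 was higher and 1 lower. With LPS alone 65.7% of all genes were called on the TMM scale, 31% upward. With JSH-23 alone 7 of the 8 rose (41% of all genes called), Tcp1 by 0.24 ± 0.04 and Cct4 by 0.17 ± 0.04, and on the TPM scale also 7. With JSH-23 and LPS 1 passed, Cct3 at -0.11 ± 0.04, while on the TPM scale 7 were higher. Of the 8 other mitochondrial chaperone and protease genes, 4 rose with JSH-23 alone and 5 with JSH-23 and LPS, against 41% and 48.7% of all genes called. Hscb, a J-domain protein of iron-sulphur cluster assembly, rose by 0.54 ± 0.12 and 0.77 ± 0.13, Clpp by 0.50 ± 0.11 without LPS, and Grpel2, an exchange factor of mitochondrial HSP70, by 0.76 ± 0.09 with LPS. Of 7 small heat shock protein genes other than Hspb1, 2 had enough counts for a test, and Hspb6 was lower with LPS after JSH-23 by -0.35 ± 0.13.

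**Figure D5:**
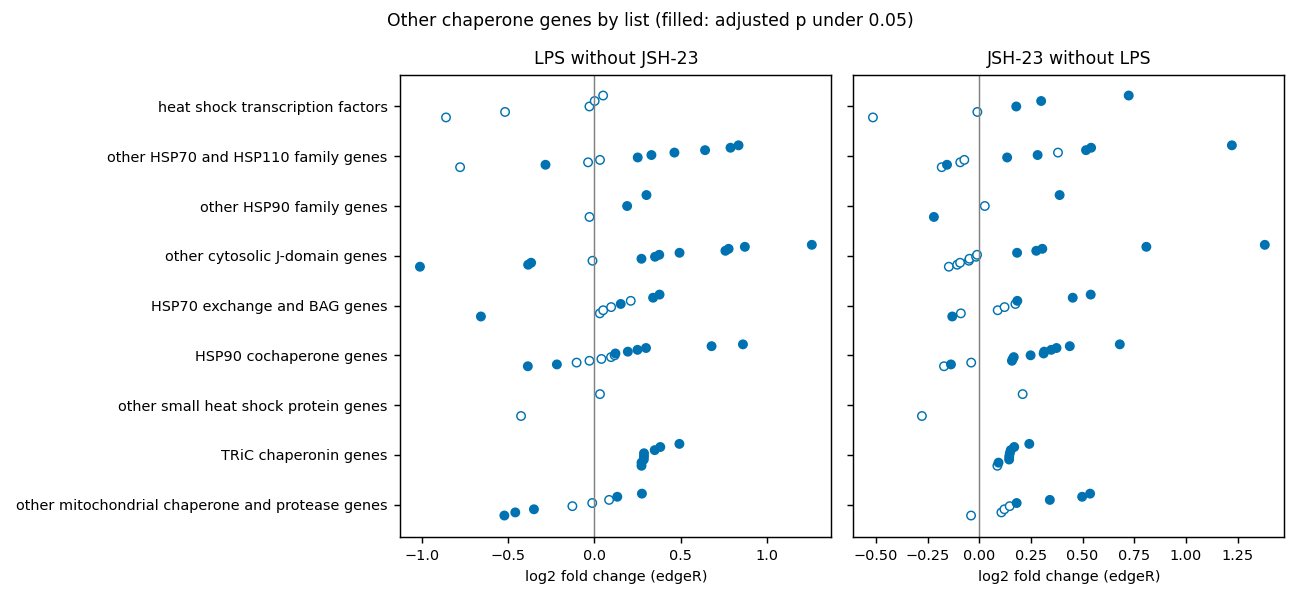
Log2 fold change (edgeR, TMM scale) of the 69 tested genes of 9 chaperone lists with LPS (left) and with JSH-23 (right), 1 point per gene; filled points have an adjusted p under 0.05. In the JSH-23 panel the filled points lie above 0 for 38 genes and below it for 4.

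Across the 12 libraries the 10 genes fell into patterns that can be described by the genes most like them, among 7565 named protein-coding genes. Groups of 3 libraries share their treatment, so these coefficients describe the group pattern and are not tested. The summed Hspa1a and Hspa1b level ran with Treml4 (Pearson r = 0.993 on log2 CPM), Ampd3 (0.992) and Lonrf1 (0.990). Ampd3, an AMP deaminase, had means of 28.2, 118, 139.6 and 336 CPM in WT, WTL, WT + JSH23 and WTL + JSH23 cells. Hsph1 ran with the glutathione synthetase gene Gss (0.996), Pkp2 (0.994) and the catalase gene Cat (0.993), and Gss had means of 63, 42.5, 155.1 and 133 CPM in the same order. Hspd1 ran with Katnbl1 (0.989) and Clec4d (0.984). Among the members themselves, Hspa8 and Hsp90aa1 had the highest coefficient (0.991) and Hsph1 and Bag3 the lowest (0.330). Hsph1 with Hspa1b had 0.407.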

How the data were processed

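The RNA-seq used here came from 12 libraries, 3 per group, and the study's reporting summary lists further RNA-seq libraries. Per the methods and the submitters' processing notes, reads were trimmed with Trim Galore, aligned to mm10 with STAR (2.6.0c in these notes, another patch release in the study's reporting summary) and quantified by the authors with RSEM; the GENCODE release is not given in the sources used here. The labels name an rRNA depletion kit and the methods a polyA kit, and which was used could not be settled. The deposited files give an expected count, a TPM value and an effective length per gene and library. Gene names were taken from GENCODE M21 (55154 of 55335 identifiers matched by identifier without version).

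Expected counts were rounded to whole numbers and fitted over all genes with edgeR 4.0.16 (R 4.3.3): 1 coefficient per group, filterByExpr, TMM scaling, a quasi-likelihood test with 8 residual degrees of freedom and Benjamini-Hochberg adjustment over 14357 genes, with a threshold of 0.05. The test was checked on simulated data. TMM factors were 0.859 to 0.88 in WTL, 0.939 to 0.956 in WTL + JSH23, 1.08 to 1.09 in WT and 1.11 to 1.12 in WT + JSH23. Expected counts sum to 24664724 to 34837847 per library. The study describes its samples as biologically independent, but no source used here ties a library to a mouse or culture, so the p-values measure the spread between these libraries.

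The 10 genes, the chaperone lists and the marker lists were chosen with earlier results of these data known. Named were the 10 genes, the genes of each list with the largest calls in each direction (up to 2 each, 1 CPM or more on average in whichever group was higher) and the 3 genes most like each of 3 patterns (mean of at least 10 CPM, log2 CPM with 0.5 added), of which 1 is not reported here. Alternatives were DESeq2 1.42.0, upper quartile scaling, no filter on low counts, limma 3.58.1 on the log2 of the deposited TPM with 1 added, only the 2 groups compared, a replicate block, Hspa1a and Hspa1b summed, and leaving out each library. Promoter windows came from RefSeq (GRCm38.p6). Protein sequences were not analysed here.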

Additional observations from a re-analysis of the deposited data

Results flagged for a closer look

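For 5 of the 10 genes the answer to LPS was not the same after JSH-23, by the interaction term of the edgeR fit (the log2 LPS change with the inhibitor minus that without), against 18% of all genes called. Hspa1b had the largest difference, -0.70 (adjusted p = 9.04e-06), followed by Hspa1a at -0.44 (adjusted p = 0.0168), Hspd1 at -0.23 (adjusted p = 0.00982) and Hspe1 at -0.19 (adjusted p = 0.0429). Hsph1 differed in the other direction, at 0.25 (adjusted p = 0.0346). These differences are ratios, and JSH-23 had raised the starting level of all 5 genes. In CPM, the ± 1 SE ranges of the LPS change overlapped for Hspa1a and Hsph1 and were apart for Hspa1b, Hspd1 and Hspe1. They overlapped for the sum of Hspa1a and Hspa1b, which are counted singly here although the split of reads between them is uncertain. Of these 5 calls, that of Hspa1b passed in every alternative fit; when single libraries were left out, the Hspe1 call was lost in 9 fits, the Hsph1 call in 6 and the Hspa1a call in 2, and those of Hspa1a, Hspd1 and Hspe1 did not pass on the TPM scale. The macrophage marker sums of the 4 groups also differed, and their part in these differences was not tested. The labels name no batch, so a difference in culture or run between cells with and without JSH-23 could not be tested.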

How the results depend on the processing

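On the log2(TPM + 1) scale, tested with limma, these LPS changes without JSH-23 turned negative: Hspa8 -0.15, Dnajb1 -0.25, Bag3 -0.22, Hspe1 -0.0063, Bag5 -0.0025, Grpel1 -0.18, Hsp90ab1 -0.15, Hsp90b1 -0.0319 and Yme1l1 -0.055. After JSH-23 the same held for Hspa8 -0.026, Hspd1 -0.0067, Hspe1 -0.060, Hsp90ab1 -0.055 and Lonp1 -0.00848, and with JSH-23 and LPS Cct3 (0.052), Fkbp5 (0.086) and Hyou1 (0.00468) turned positive. The cause was not tested. On this scale 0 of the 10 genes passed 2-fold with LPS alone and 2 differed in their LPS change; listed genes that differed were 8 against 15. All-gene counts past 2-fold were 1345 against 2361 (LPS), 613 against 1484 (LPS after JSH-23), 318 against 771 (JSH-23), 404 against 1005 (JSH-23 with LPS) and 62 against 192 (difference of the LPS changes; 127 with DESeq2). Upward and downward calls of all genes were 1911 and 7802 with LPS on this scale, 3749 and 5832 with upper quartile scaling, and 4451 and 4986 with TMM; after JSH-23 they were 1977 and 5947, 3085 and 5090, and 3935 and 3893. With JSH-23 and LPS they were 4242 and 1967 on the TPM scale and 3516 and 3478 with TMM, and for the difference 1400 and 362, 1000 and 1436 with DESeq2, and 1370 and 1212 with TMM. Members past 2-fold with JSH-23 and LPS were 1 with DESeq2 and 1 in the fit of the 2 groups alone, in both of which Hspb1 did not pass, and 1 to 3 when single libraries were left out; members with a differing LPS change were then 3 to 5. The log2 change of Hspb1 with JSH-23 and LPS was 2.26 without WTL replicate 4 and 0.97 without WTL + JSH23 replicate 3, where it did not pass. Ranked by CPM per kb of effective length instead of TPM, the 10 genes kept their order in each group. Within a library both measures rank genes by count over effective length, so this is no separate check.

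Same-numbered libraries of WT and WTL and of the JSH-23 groups correlated at 0.0142 to 0.0614 in their deviations from the group means. Different-numbered libraries correlated at -0.0564 to 0.0355. Of these, only WT + JSH23 replicate 1 with WTL + JSH23 replicate 2 was above 0. The values thus leaned towards pairs by number but were small. The main fit did not take the numbers as pairs, and a fit with them as a block is given next. With the replicate block, 8, 7 and 5 of the 10 genes were called for LPS, LPS after JSH-23 and their difference, the same counts as without it, and 9539, 7960 and 2968 of all genes. Groups with and without JSH-23 share no replicate numbers, so these were fitted without a block.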
